A study of Mus musculus with 11 samples.

Results

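Amino acids cross cell membranes through carriers of several solute carrier (SLC) families, and the genes described here are all those of the SLC1, SLC3, SLC6, SLC7, SLC36, SLC38 and SLC43 families that the array annotation names. They were chosen by symbol alone, as every gene whose annotated symbol begins with Slc1a, Slc3a, Slc6a, Slc7a, Slc36a, Slc38a or Slc43a and a number, and there were 64 of them among 19944 genes measured. Of the 64, 61 were assigned a carrier or carrier subunit role here, and Slc6a21, Slc6a19os and Slc7a6os were given no role. Slc7a6os and Slc6a19os are named for lying opposite a carrier gene and are not carriers of these families.

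Each of 11 mice aged 10 weeks gave RNA of its rectal mucosa to 1 Affymetrix Mouse Gene 1.0 ST array. The mutant is α6ΔIEC-TAM, a line in which tamoxifen is meant to delete Itga6, the integrin α6 gene, in intestinal epithelial cells. Arrays labelled mutant tamoxifen came from 4 mutant mice (1 male) given tamoxifen by gavage at 10 mg per day on alternate days over 5 days from the age of 8 weeks. Control tamoxifen arrays came from 3 mice labelled wild type (2 males) given the same course, and mutant NaCl arrays from 4 mutant mice (1 male) given NaCl in its place. All were taken 15 days after the first gavage, and the sources used here name no Cre driver, allele or strain. Levels are the log2 values the authors deposited.

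The targeted gene read against the label. Itga6 had log2 levels of 11.75 to 11.93 in the arrays labelled mutant tamoxifen, 11.15 to 11.52 in control tamoxifen and 11.28 to 11.49 in mutant NaCl, and was higher in mutant tamoxifen than in control tamoxifen by 0.42 (limma, SE 0.0957, adjusted p = 0.00949). The position of its probes relative to the deletion is unknown, so this reading is no check of the labels, and every direction below follows the labels. Array medians were 7.29 to 7.35. Markers of simple epithelium (Epcam, Cdh1, Vil1, keratins and Cldn7) had a mean log2 level of 12.70 to 12.81 in mutant tamoxifen and 12.46 to 12.62 in the other 7 arrays, with 3 of 8 higher and 0 lower against control tamoxifen and 4 higher and 0 lower against mutant NaCl. Markers of other cell types also moved with the groups or between animals. The 8 smooth muscle markers read 11.79 to 11.95 on average in mutant tamoxifen and 12.16 to 12.48 in all other arrays, and all 8 were lower in both comparisons. The 8 absorptive colonocyte markers read 11.23 to 11.52 against 11.91 to 12.34, the 6 enteric neuron and glia markers 7.35 to 7.44 against 7.61 to 7.72, and the 7 neutrophil markers 8.16 to 8.54 against 7.47 to 7.75. Squamous markers such as Krt5 and Krt13 ranged from 8.31 to 9.98 in mutant tamoxifen, from 6.67 to 9.87 in control tamoxifen and from 8.55 to 9.79 in mutant NaCl. Goblet cell, mast cell and fibroblast lists also held markers past the threshold. These were 4 of 6, 4 of 6 and 1 of 7 against control tamoxifen. Against mutant NaCl they were 5 of 6, 3 of 6 and 6 of 7, in both directions within each list. The part of these cell types in the results was not tested, except where a value with a squamous marker term is given. In whole mucosa, fewer cells of a type and less RNA per cell cannot be told apart.

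**Figure D1:**
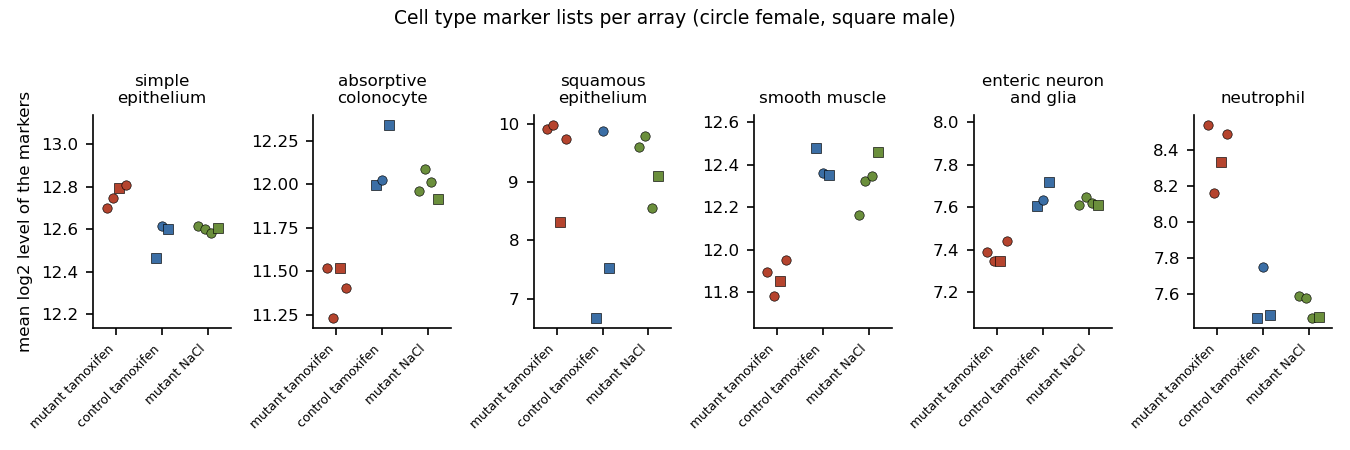
Mean log2 level (y axis) of 6 cell type marker lists in each of the 11 arrays (points, circles for females and squares for males), by group. Smooth muscle, absorptive colonocyte and enteric neuron lists lie lower in every mutant tamoxifen array than in the others and the neutrophil list higher, while the squamous list spreads from 6.67 to 9.87 within control tamoxifen.

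As background, SLC7 light chains are exchangers that reach the membrane bound to a heavy chain, Slc3a2 (4F2hc) or Slc3a1 (rBAT). SLC1 carriers bring in acidic or small neutral amino acids with sodium, SLC6 carriers use sodium and chloride for neutral amino acids and transmitters, SLC36 carriers use protons, and SLC38 carriers move glutamine and other small neutral amino acids. When amino acids run short, the transcription factor ATF4 binds amino acid response elements and raises genes that include Slc7a11, Slc7a5, Slc3a2 and Slc38a2. In the intestine, carriers of the apical membrane take up amino acids from the lumen and carriers of the basolateral membrane pass them on to the blood.

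Setting mutant tamoxifen against control tamoxifen addresses the effect of the genotype under 1 drug. Setting it against mutant NaCl addresses the effect of tamoxifen within the mutant genotype. Because tamoxifen is also meant to induce the deletion, the drug and the deletion cannot be told apart in that comparison. With limma and Benjamini-Hochberg adjustment over all genes, at a threshold of 0.05 on the adjusted p, 10 of the 64 genes were higher and 14 lower in mutant tamoxifen than in control tamoxifen. That is 37.5% of them, where 24.6% of all genes tested passed. Against mutant NaCl, 11 were higher and 11 lower, which is 34.4% where 23.2% of all genes passed. The 2 comparisons share the mutant tamoxifen arrays, so passing in both is not independent support. The share of all genes that passed in both, or in neither, was not counted. Slc7a11, Slc7a5, Slc3a1, Slc1a4, Slc7a7, Slc7a6, Slc6a9, Slc43a1 and Slc7a1 were higher in both. Slc1a1, Slc36a1, Slc7a8, Slc6a4, Slc6a12, Slc6a17, Slc1a5, Slc7a14 and Slc6a14 were lower in both. The remaining 36 genes passed in neither, with differences of at most 0.21 in size against control tamoxifen and 0.25 against mutant NaCl. Of the 64, 16 lie among the lowest 25% of genes by mean level, and 12.5% of these passed in each comparison. In the other 48 genes 45.8% and 41.7% passed. A dim gene that did not pass is thus not shown to be unchanged. The median log2 difference over the 64 was -0.06 against control tamoxifen, beside -0.02 over all genes, and -0.03 against mutant NaCl, beside -0.01. The counts against control tamoxifen fell when certain single arrays were left out, as did those over all genes. Without mutant tamoxifen replicate 3, the male of that group, 4 were higher and 8 lower, and calls over all genes went from 4915 to 2517. Without control tamoxifen replicate 2, the female of that group, 5 were higher and 5 lower, and calls over all genes went to 3031. Leaving out either array left its group with 1 sex, and the sex term then rested on the other groups. Without control tamoxifen replicate 2, some lost calls kept their size, such as Slc1a4 (0.69 and then 0.74). Others shrank, such as Slc6a8 (-0.32 and then -0.09). Whether lost calls reflect 1 animal or lower precision was not tested. Against mutant NaCl, 7 were higher and 8 lower without mutant tamoxifen replicate 3, and calls over all genes went from 4634 to 3150.

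**Figure D2:**
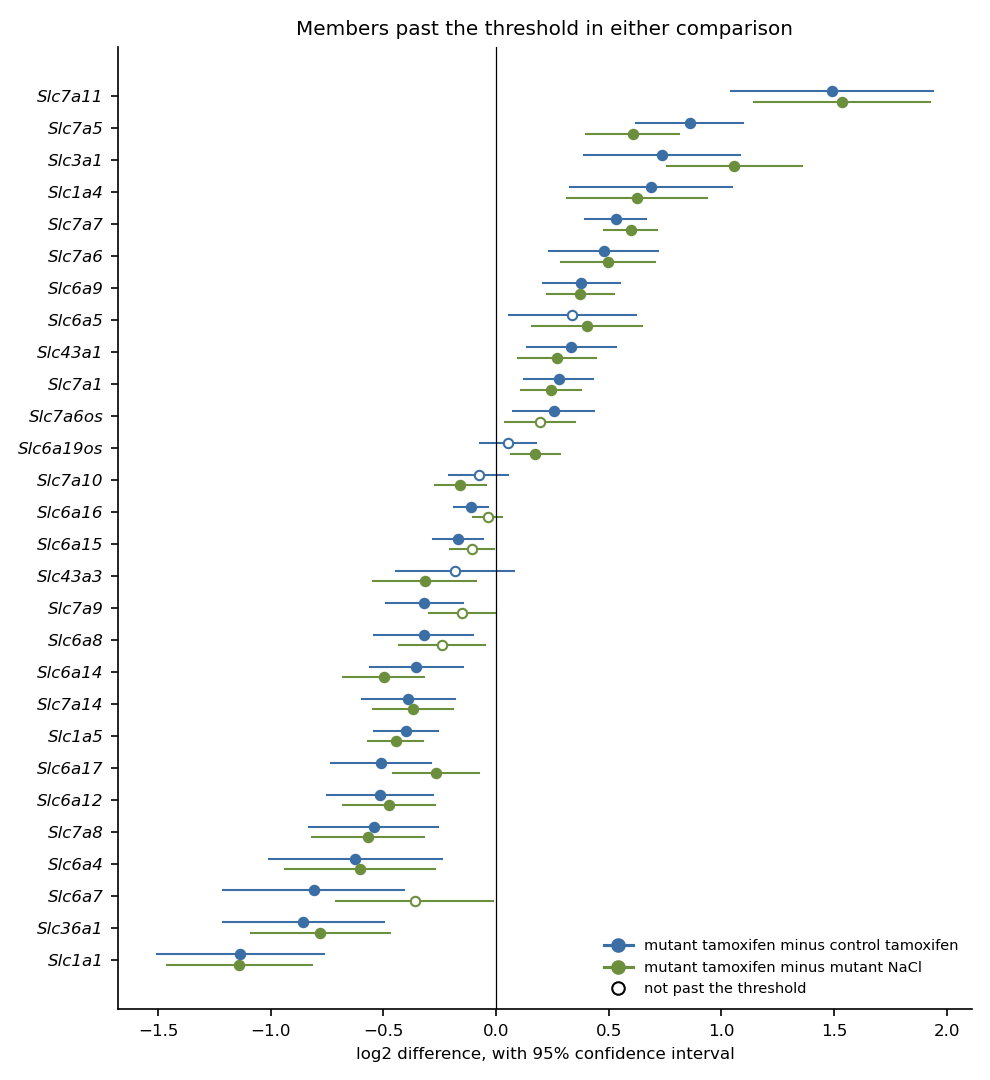
Log2 difference (x axis) with its 95% confidence interval for the 28 genes past the threshold in either comparison, for mutant tamoxifen minus control tamoxifen and minus mutant NaCl (filled points past the threshold, open points not). Slc7a11 lies highest at 1.49 and 1.54, and Slc1a1 lowest at -1.13 and -1.14. On the same side in both, 18 genes are filled, and the comparisons share the mutant tamoxifen arrays.

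**Figure D3:**
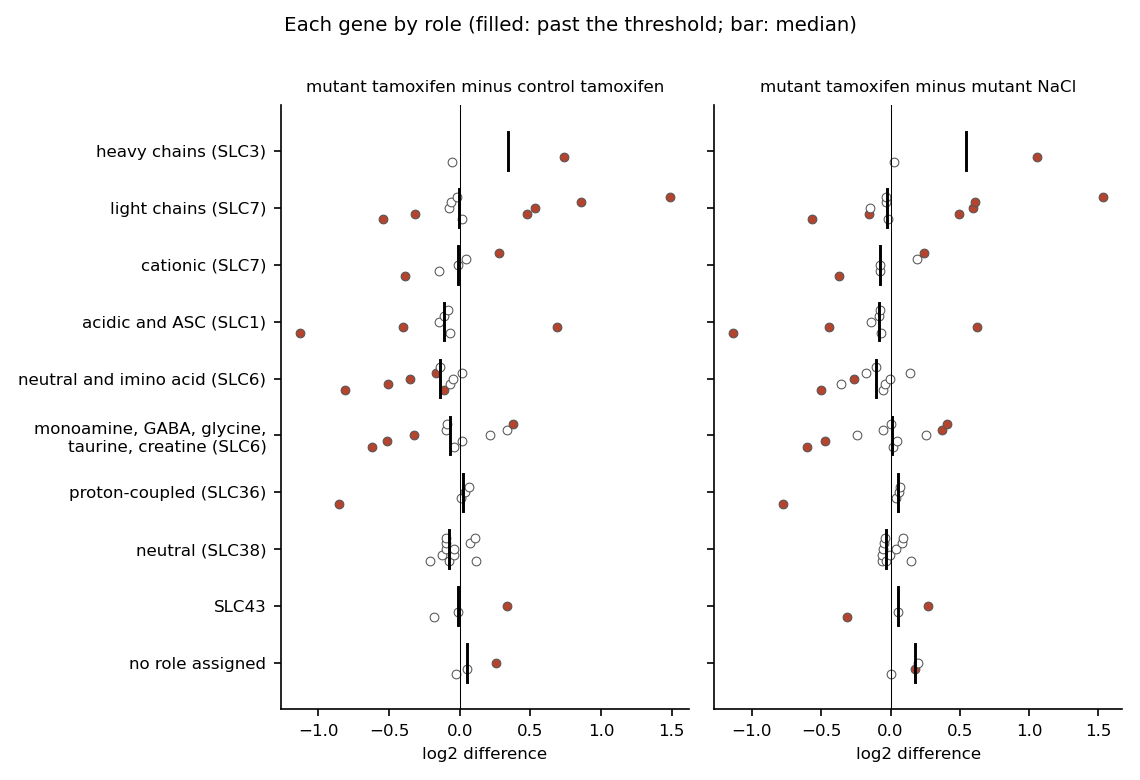
Log2 differences (x axis) of all 64 genes by role (rows), against control tamoxifen on the left and mutant NaCl on the right, with filled points past the threshold and bars at the median of each role. SLC7 light chains reach from -0.54 to 1.49 against control tamoxifen, while the SLC38 carriers lie between -0.21 and 0.11.

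Of the 10 light chains, 4 rose and 2 fell against control tamoxifen, and 4 rose and 2 fell against mutant NaCl. That is 60% in each, where 24.6% and 23.2% of all genes passed. Slc7a11 (Entrez Gene 26570), which encodes xCT, the light chain that exchanges cystine for glutamate and so supplies cysteine for glutathione, showed the largest difference of the 64 genes. Its log2 levels were 8.87, 9.04, 8.79 and 9.25 in mutant tamoxifen, 6.75, 7.87 and 7.33 in control tamoxifen, and 7.88, 7.42, 7.23 and 7.27 in mutant NaCl. All 4 mutant tamoxifen arrays lay above the other 7, and the controls spread widely, with an SD of 0.561 (n = 3) beside 0.204 (n = 4) in mutant tamoxifen. The gene was 2.81-fold higher than in control tamoxifen (limma, log2 difference 1.49, SE 0.203, adjusted p = 0.00085). It was 2.9-fold higher than in mutant NaCl (limma, log2 difference 1.54, SE 0.176, adjusted p = 0.000282). The control array with the highest Slc7a11 level, replicate 2, was also the control with the highest squamous marker level. With a squamous marker term the difference from control tamoxifen was 1.25 (limma, adjusted p = 0.00273). Among female arrays alone it was 1.18, with replicate 2 as the only control.

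The promoter of Slc7a11 is printed because it carries the letters of the amino acid response element in both orientations. The core TGATGNAA was searched on both strands in promoter windows of 300 bases, from 250 before to 50 after each RefSeq start (GRCm38.p6). Capitals mark each match in the 250 bases before the start of Slc7a11, minus strand, chr3:50443614-50443863, and in 30 bases across the start of Slc1a4, minus strand, chr11:20332699-20332728, a gene taken up below with the SLC1 carriers.
Slc7a11: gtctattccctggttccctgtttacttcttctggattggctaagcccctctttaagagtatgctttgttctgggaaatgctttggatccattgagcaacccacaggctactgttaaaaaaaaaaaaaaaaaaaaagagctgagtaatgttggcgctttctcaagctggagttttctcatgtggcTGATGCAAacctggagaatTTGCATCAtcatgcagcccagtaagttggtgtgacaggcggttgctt
Slc1a4: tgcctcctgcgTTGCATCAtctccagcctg
In Slc7a11 the matches begin 66 and 47 bases before the start, the first on the gene's strand and the second on the other. At least 2 matches were found in 23 of 32851 windows of the table (0.07%), and at least 1 in 3.97%. Of the 64 genes, 47 had a window, and 4 of these (8.51%) held a match, beside 4.51% of all 27025 genes in the table. The 4 were Slc7a11, Slc1a4, Slc7a7 and Slc6a21. Slc7a7 held it at 2 sites over 5 windows, some of which overlap. Both sites lay in 1 of its windows, which is thus also among the 23. Thus 3 of the 8 genes with a window that rose in both comparisons held the letters, and 0 of the 8 that fell in both. Slc3a1, which rose in both, and Slc3a2 and Slc38a2, named above as raised by ATF4, each had 1 window without a match. Slc7a5 had no window. Sequence outside the windows was not searched, so an element elsewhere in a gene would be missed. Whether the letters go with the direction was not tested. A match describes the sequence and does not show that a factor binds there.

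Other light chains that pair with the heavy chain Slc3a2 rose by less. Slc7a5 (Entrez Gene 20539) encodes LAT1, which brings in leucine and other large neutral amino acids. Its log2 levels were 10.40, 10.39, 10.79 and 10.73 in mutant tamoxifen, 9.66, 9.84 and 9.70 in control tamoxifen, and 9.99, 10.01, 9.93 and 9.95 in mutant NaCl. The mutant tamoxifen arrays all lay above the rest, and every mutant NaCl array also lay above every control. Slc7a5 was 1.81-fold higher than in control tamoxifen (limma, log2 difference 0.86, SE 0.107, adjusted p = 0.000556) and 1.52-fold higher than in mutant NaCl (limma, log2 difference 0.61, SE 0.093, adjusted p = 0.00133). The gap of 0.25 between mutant NaCl and control tamoxifen did not pass (limma, adjusted p = 0.604).

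Slc7a7 (Entrez Gene 20540) encodes y+LAT1, the basolateral exchanger that lets cationic amino acids out of epithelial cells. Its levels were 9.94, 9.84, 10.01 and 9.89 in mutant tamoxifen, 9.39, 9.37 and 9.43 in control tamoxifen, and 9.32, 9.29, 9.41 and 9.26 in mutant NaCl. All 4 mutant tamoxifen arrays lay above the other 7, and the control tamoxifen and mutant NaCl arrays overlapped. It was 1.45-fold higher than in control tamoxifen (limma, log2 difference 0.53, SE 0.0617, adjusted p = 0.000386) and 1.51-fold higher than in mutant NaCl (limma, log2 difference 0.60, SE 0.0536, adjusted p = 6.74e-05). Slc7a7 is also expressed by macrophages. Of the 8 macrophage and dendritic cell markers, 1 was higher and 2 were lower against control tamoxifen, with a median of -0.26, and 1 was higher and 0 lower against mutant NaCl, with a median of -0.14. Slc7a6, which encodes the related y+LAT2, rose by 0.48 against control tamoxifen (limma, SE 0.109, adjusted p = 0.0101) and by 0.50 against mutant NaCl (limma, SE 0.0948, adjusted p = 0.00412). Its call against control tamoxifen was lost without mutant tamoxifen replicate 3 (0.36) or control tamoxifen replicate 2 (0.49).

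Slc7a8 (Entrez Gene 50934) encodes LAT2, a basolateral exchanger of neutral amino acids, and moved the other way. It had levels of 8.36, 8.16, 7.99 and 8.36 in mutant tamoxifen, 9.02, 8.59 and 8.78 in control tamoxifen, and 8.67, 8.75, 8.73 and 8.99 in mutant NaCl. All mutant tamoxifen arrays lay below the others. The gene was 1.46-fold lower than in control tamoxifen (limma, log2 difference -0.54, SE 0.129, adjusted p = 0.0125) and 1.48-fold lower than in mutant NaCl (limma, log2 difference -0.57, SE 0.112, adjusted p = 0.00491). The lowest mutant tamoxifen array was the male, and the 2 higher controls were males. Without mutant tamoxifen replicate 3 the difference from control tamoxifen was -0.31 and did not pass. Slc7a10, the Asc-1 exchanger gene, fell by 0.16 against mutant NaCl (limma, adjusted p = 0.0456), and its call was lost without any of 10 of the 11 arrays in turn. Slc7a12, Slc7a13 and Slc7a15 passed in neither comparison.

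The heavy chains did not move together. Slc3a2 (Entrez Gene 17254), the partner of Slc7a5, Slc7a6, Slc7a7, Slc7a8 and Slc7a11, had levels of 12.00, 11.85, 11.98 and 12.04 in mutant tamoxifen, 12.08, 11.96 and 12.07 in control tamoxifen, and 11.97, 11.88, 11.97 and 11.94 in mutant NaCl. The groups overlapped, and the log2 difference was -0.05 against control tamoxifen (limma, 95% confidence interval -0.17 to 0.07, adjusted p = 0.52). Against mutant NaCl it was 0.03 (limma, interval -0.08 to 0.13, adjusted p = 0.732). These intervals lie below the rise of each of Slc7a11, Slc7a5, Slc7a6 and Slc7a7 in the same comparison.

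Slc3a1 (Entrez Gene 20532), the rBAT heavy chain of the apical cystine and cationic amino acid exchanger, did rise. Its levels were 7.86, 7.87, 7.66 and 7.28 in mutant tamoxifen, 6.70, 6.92 and 7.02 in control tamoxifen, and 6.83, 6.69, 6.54 and 6.39 in mutant NaCl. All 4 mutant tamoxifen arrays lay above the rest, with replicate 4 nearest to them. It was 2.08-fold higher than in mutant NaCl (limma, log2 difference 1.06, SE 0.136, adjusted p = 0.000519) and 1.67-fold higher than in control tamoxifen (limma, log2 difference 0.74, SE 0.156, adjusted p = 0.00718). The latter call was lost without mutant tamoxifen replicate 3 (0.67) or control tamoxifen replicate 2 (0.69). Slc7a9, the light chain that Slc3a1 carries to the apical membrane, fell by 0.32 against control tamoxifen (limma, SE 0.0773, adjusted p = 0.0135). Against mutant NaCl its difference was -0.15 and did not pass (limma, adjusted p = 0.139). Without control tamoxifen replicate 2 the difference from control tamoxifen was -0.25 and did not pass either.

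Among the 5 cationic carriers and their relatives of SLC7, Slc7a1 rose and Slc7a14 fell in both comparisons. That is 40% in each, where 24.6% and 23.2% of all genes passed. Slc7a1, the CAT-1 carrier of arginine and lysine, read 9.15 to 9.34 in mutant tamoxifen, 8.86 to 9.04 in control tamoxifen and 8.91 to 9.06 in mutant NaCl, so that mutant tamoxifen lay above both other groups, which overlapped. It was higher by 0.28 (limma, SE 0.0694, adjusted p = 0.0152) and by 0.24 (limma, SE 0.0603, adjusted p = 0.0151). Without mutant tamoxifen replicate 3 both differences were 0.18 and neither passed, and without mutant NaCl replicate 4 the latter was 0.21 and did not pass. Slc7a14, a lysosomal member of the group with high levels in neural tissue, was lower by log2 differences of -0.39 (limma, SE 0.0934, adjusted p = 0.0129) and -0.37 (limma, SE 0.0811, adjusted p = 0.00838). Its call against control tamoxifen was lost without mutant tamoxifen replicate 3 (-0.27) or control tamoxifen replicate 2 (-0.36). The enteric neuron and glia markers lay lower in the same arrays, with a median of -0.21 and 3 of 6 lower against control tamoxifen. Against mutant NaCl their median was -0.11, with 2 lower and 1 higher, and their part in this difference was not tested. Slc7a2, Slc7a3 and Slc7a4 did not pass.

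**Figure D4:**
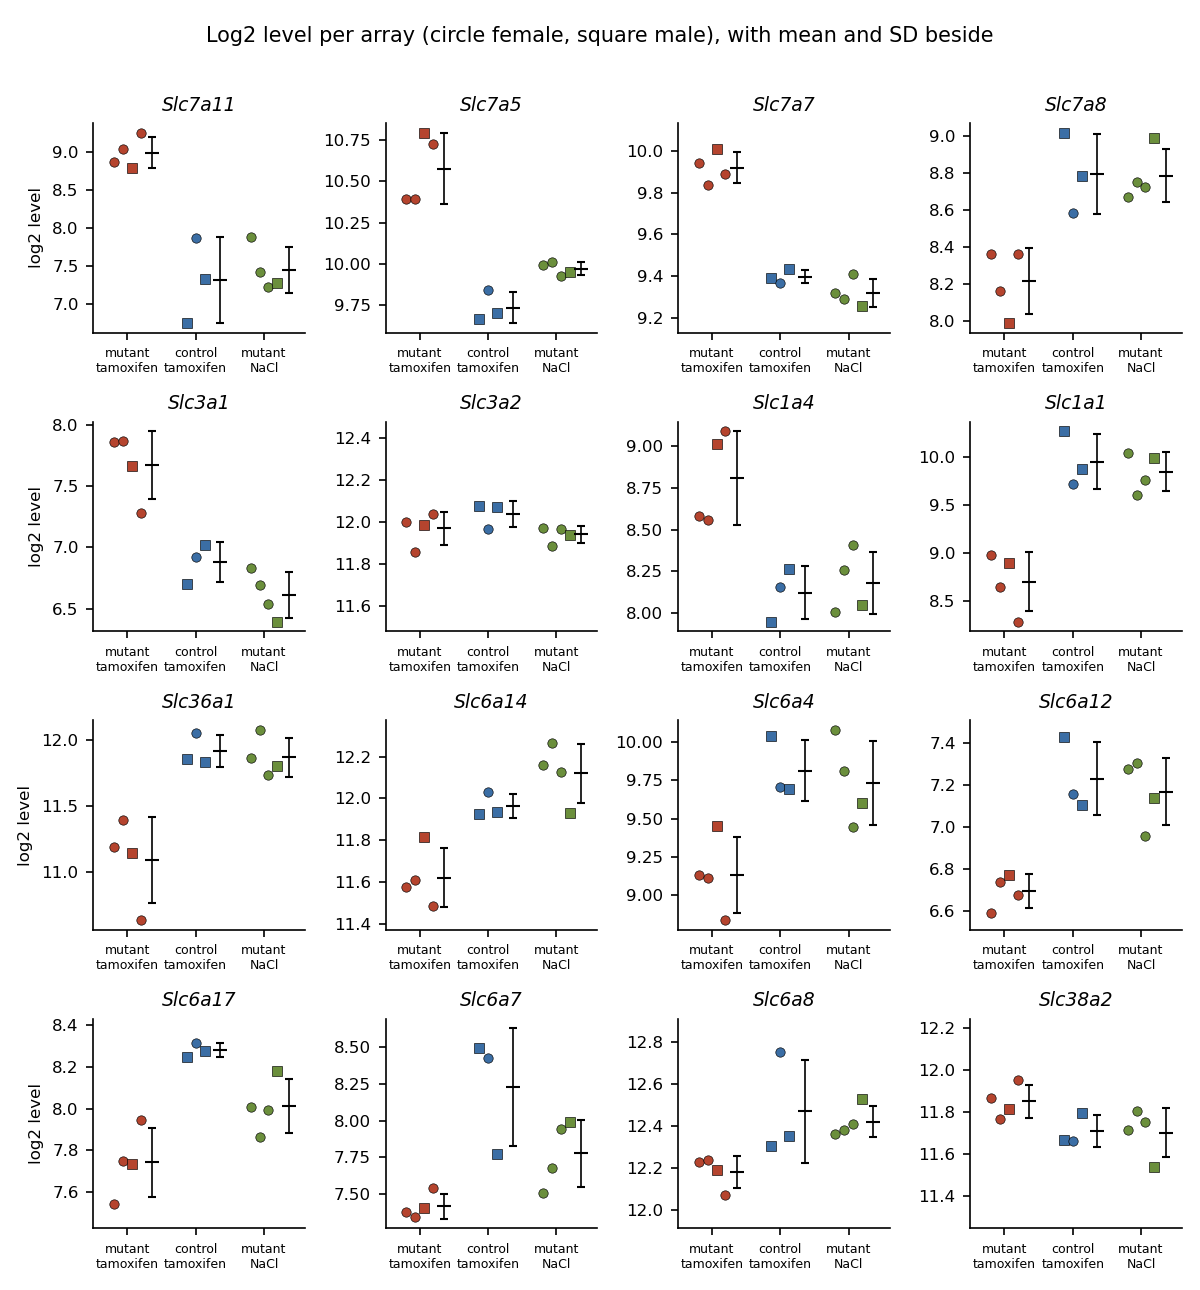
Log2 level (y axis) of 16 genes in each of the 11 arrays (circles female, squares male), with mean and SD beside each group. The 4 mutant tamoxifen arrays lie apart from the other 7 in the panels of Slc7a11, Slc7a7 and Slc1a1, and overlap them in those of Slc3a2 and Slc38a2.

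Of the 7 SLC1 carriers, 1 rose and 2 fell in both comparisons. That is 42.9% in each, where 24.6% and 23.2% of all genes passed. Slc1a1 (Entrez Gene 20510) encodes EAAT3, the carrier of glutamate, aspartate and cysteine at the apical membrane of enterocytes. Its levels were 8.98, 8.65, 8.90 and 8.29 in mutant tamoxifen, 10.26, 9.71 and 9.87 in control tamoxifen, and 10.04, 9.60, 9.75 and 9.98 in mutant NaCl. The highest mutant tamoxifen array lay below the lowest of the other 7. Slc1a1 was 2.2-fold lower than in control tamoxifen (limma, log2 difference -1.13, SE 0.168, adjusted p = 0.00124) and 2.2-fold lower than in mutant NaCl (limma, log2 difference -1.14, SE 0.146, adjusted p = 0.000516). Absorptive colonocyte markers were lower in the same arrays, with 5 of 8 past the threshold and a median of -0.50 against control tamoxifen, and 6 of 8 and a median of -0.39 against mutant NaCl. The medians of the simple epithelium markers were 0.14 and 0.12. Slc1a5, the ASCT2 carrier of glutamine, read 10.19 to 10.46 in mutant tamoxifen, 10.72 to 10.83 in control tamoxifen and 10.70 to 10.84 in mutant NaCl. It was lower by log2 differences of -0.40 (limma, SE 0.0639, adjusted p = 0.00178) and -0.45 (limma, SE 0.0555, adjusted p = 0.000437).

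Slc1a4 (Entrez Gene 55963), the ASCT1 carrier of alanine, serine and cysteine, rose where its close relative Slc1a5 fell. Its levels were 8.58, 8.55, 9.01 and 9.08 in mutant tamoxifen, 7.95, 8.16 and 8.26 in control tamoxifen, and 8.01, 8.26, 8.41 and 8.05 in mutant NaCl. Replicates 3 and 4 of mutant tamoxifen lay above replicates 1 and 2, and all 4 above the other groups. It was 1.61-fold higher than in control tamoxifen (limma, log2 difference 0.69, SE 0.162, adjusted p = 0.0118) and 1.54-fold higher than in mutant NaCl (limma, log2 difference 0.63, SE 0.141, adjusted p = 0.00939). The call against control tamoxifen was lost without mutant tamoxifen replicate 3 (0.54) or control tamoxifen replicate 2 (0.74). The glutamate carrier genes Slc1a2, Slc1a3, Slc1a6 and Slc1a7 passed in neither comparison.

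Of 9 SLC6 carriers of neutral and imino acids, 0 rose in either comparison, and 5 fell against control tamoxifen and 2 against mutant NaCl. That is 55.6% and 22.2%, where 24.6% and 23.2% of all genes passed, so the count against mutant NaCl is near the share of all genes. With limma at an unadjusted p under 0.05, 5 and 4 of the 9 differed. Slc6a14 (Entrez Gene 56774) encodes ATB0,+, an apical carrier of neutral and cationic amino acids in the colon. Its levels were 11.58, 11.61, 11.82 and 11.48 in mutant tamoxifen, 11.93, 12.03 and 11.94 in control tamoxifen, and 12.16, 12.26, 12.12 and 11.93 in mutant NaCl. The mutant tamoxifen arrays were all below the others, with the male nearest to them. Slc6a14 was 1.41-fold lower than in mutant NaCl (limma, log2 difference -0.50, SE 0.0813, adjusted p = 0.00186) and 1.28-fold lower than in control tamoxifen (limma, log2 difference -0.35, SE 0.0936, adjusted p = 0.0197). Against control tamoxifen the call was lost without control tamoxifen replicate 2 (-0.31) and with a squamous marker term (-0.34).

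Slc6a17 and Slc6a7 encode carriers of synaptic vesicles and of proline in neurons. Slc6a17 (Entrez Gene 229706) had levels of 7.54, 7.75, 7.74 and 7.95 in mutant tamoxifen, 8.25, 8.31 and 8.28 in control tamoxifen, and 8.01, 7.87, 7.99 and 8.18 in mutant NaCl. It lay below all controls and overlapped mutant NaCl. The log2 difference was -0.51 against control tamoxifen (limma, SE 0.1, adjusted p = 0.00497) and -0.27 against mutant NaCl (limma, SE 0.0872, adjusted p = 0.0491). The first was lost without control tamoxifen replicate 2 (-0.44), and the second in 9 of 11 fits that each left out 1 array, with values from -0.34 to -0.20. Slc6a7 (Entrez Gene 240332) had levels of 7.38, 7.35, 7.41 and 7.54 in mutant tamoxifen, 8.49, 8.42 and 7.77 in control tamoxifen, and 7.51, 7.68, 7.94 and 7.99 in mutant NaCl. Control replicate 3 lay with the mutant NaCl arrays. Slc6a7 fell by 0.81 against control tamoxifen (limma, SE 0.182, adjusted p = 0.00932), and its difference of -0.36 from mutant NaCl did not pass (limma, adjusted p = 0.131). The call was lost without mutant tamoxifen replicate 3 (-0.80) or control tamoxifen replicate 2 (-0.61). The enteric neuron and glia markers were lower in the same arrays, with no overlap between mutant tamoxifen and the rest in their mean level, and their part was not tested.

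Slc6a15 and Slc6a16 fell by 0.17 and 0.11 against control tamoxifen (limma, adjusted p = 0.0345 and 0.0348), at levels of 5.02 to 5.39 and 5.26 to 5.41 that lie among the lowest 25% of genes by mean level. Their calls were lost in 8 and 7 of 11 fits that each left out 1 array. Slc6a19, the B0AT1 carrier of neutral amino acids in the small intestine, read 5.33 to 5.99 over all arrays and did not pass. Slc6a20a, a carrier of proline, read 8.62 to 9.36 and did not pass either, nor did Slc6a18 and Slc6a20b. Slc6a20a and Slc6a20b are close copies, so that probes could read both.

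Of 10 SLC6 carriers of monoamines, GABA, glycine, taurine and creatine, 1 rose and 3 fell against control tamoxifen, and 2 rose and 2 fell against mutant NaCl. That is 40% in each, where 24.6% and 23.2% of all genes passed. Slc6a4 (Entrez Gene 15567) encodes SERT, by which epithelial cells clear serotonin released by enteroendocrine cells. Its levels were 9.13, 9.11, 9.45 and 8.84 in mutant tamoxifen, 10.04, 9.71 and 9.69 in control tamoxifen, and 10.08, 9.81, 9.45 and 9.60 in mutant NaCl. The male mutant tamoxifen array reached the lowest mutant NaCl array, and all 4 lay below the controls. Slc6a4 was 1.54-fold lower than in control tamoxifen (limma, log2 difference -0.62, SE 0.174, adjusted p = 0.0245) and 1.52-fold lower than in mutant NaCl (limma, log2 difference -0.60, SE 0.151, adjusted p = 0.0156). The first call was lost without control tamoxifen replicate 1 (-0.54) or replicate 2 (-0.64), and with a squamous marker term (-0.60). Of the 7 enteroendocrine markers, 1 fell and 0 rose against control tamoxifen (median -0.15), and 1 fell and 1 rose against mutant NaCl (median 0.10). Among the 8 absorptive colonocyte markers, 5 fell and 0 rose against control tamoxifen (median -0.50). Against mutant NaCl 6 of them fell and 0 rose (median -0.39). The medians of the simple epithelium markers were 0.14 and 0.12. The part of these cells in the Slc6a4 difference was not tested.

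Slc6a12 (Entrez Gene 14411), the carrier of betaine and GABA, had levels of 6.59, 6.74, 6.77 and 6.67 in mutant tamoxifen, 7.43, 7.16 and 7.10 in control tamoxifen, and 7.27, 7.30, 6.95 and 7.14 in mutant NaCl. The mutant tamoxifen arrays lay below all others. Slc6a12 was 1.43-fold lower than in control tamoxifen (limma, log2 difference -0.51, SE 0.106, adjusted p = 0.00638) and 1.39-fold lower than in mutant NaCl (limma, log2 difference -0.48, SE 0.0924, adjusted p = 0.0045). Slc6a9, the glycine carrier GlyT1, read 10.27 to 10.47 in mutant tamoxifen, 9.92 to 10.13 in control tamoxifen and 9.90 to 10.08 in mutant NaCl. It was higher by 0.38 (limma, SE 0.0781, adjusted p = 0.00624) and by 0.37 (limma, SE 0.0678, adjusted p = 0.00321).

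Slc6a8 (Entrez Gene 102857), the creatine carrier, had levels of 12.23, 12.23, 12.19 and 12.07 in mutant tamoxifen, 12.30, 12.75 and 12.35 in control tamoxifen, and 12.36, 12.38, 12.41 and 12.53 in mutant NaCl. The mutant tamoxifen arrays lay lowest, and control replicate 2 stood above the other controls. Its log2 difference of -0.32 from control tamoxifen passed narrowly (limma, SE 0.0997, adjusted p = 0.0389), and that of -0.24 from mutant NaCl did not (limma, adjusted p = 0.0717). Without control tamoxifen replicate 2 the former was -0.09, and among female arrays alone, where replicate 2 is the only control, it was -0.57. Its call was lost in 7 of 11 fits that each left out 1 array. Slc6a5, the glycine carrier GlyT2, was higher by 0.40 in mutant tamoxifen than in mutant NaCl (limma, SE 0.111, adjusted p = 0.0233), with levels of 5.998 to 6.55 and 5.70 to 5.94. Slc6a5 lies among the lowest 25% of genes by mean level. Its highest level was that of mutant tamoxifen replicate 1, and the rest of that group read 5.998 to 6.19. The Slc6a5 call was lost in 4 of 11 fits that each left out 1 array, with values from 0.29 to 0.48. Slc6a6, the taurine carrier, read 11.02 to 11.52 in mutant tamoxifen, 10.92 to 11.16 in control tamoxifen and 10.86 to 11.09 in mutant NaCl, and did not pass. The dopamine and noradrenaline carrier genes Slc6a3 and Slc6a2 and the GABA carrier genes Slc6a11 and Slc6a13 did not pass.

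Slc36a1 (Entrez Gene 215335) was the only SLC36 gene of 4 past the threshold. That is 25% in each comparison, near the 24.6% and 23.2% of all genes. It encodes PAT1, the proton-coupled carrier of glycine, alanine and proline at the apical membrane and in lysosomes. Its levels were 11.19, 11.39, 11.14 and 10.63 in mutant tamoxifen, 11.86, 12.06 and 11.83 in control tamoxifen, and 11.86, 12.08, 11.74 and 11.80 in mutant NaCl. The mutant tamoxifen arrays lay below all others, with replicate 4 the lowest. Slc36a1 was 1.81-fold lower than in control tamoxifen (limma, log2 difference -0.86, SE 0.162, adjusted p = 0.00402) and 1.72-fold lower than in mutant NaCl (limma, log2 difference -0.78, SE 0.14, adjusted p = 0.00313). Slc36a2, Slc36a3 and Slc36a4 differed by at most 0.07 in both comparisons.

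With limma, 0 of the 11 SLC38 genes passed against control tamoxifen or mutant NaCl, and 0 and 1 of them had an unadjusted p under 0.05. Over all genes, 24.6% and 23.2% passed. Slc38a2 (Entrez Gene 67760) encodes SNAT2, a sodium-coupled carrier of neutral amino acids that cells raise when amino acids are scarce. Its levels were 11.87, 11.77, 11.82 and 11.95 in mutant tamoxifen, 11.67, 11.66 and 11.80 in control tamoxifen, and 11.71, 11.80, 11.75 and 11.53 in mutant NaCl. The groups overlapped. The log2 difference was 0.11 against control tamoxifen (limma, 95% confidence interval -0.04 to 0.27, adjusted p = 0.271) and 0.15 against mutant NaCl (limma, interval 0.01 to 0.29, adjusted p = 0.106). The other 10 genes of the family, among them the glutamine carrier Slc38a1 and the lysosomal arginine sensor Slc38a9, differed by -0.21 to 0.11 against control tamoxifen.

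Of the 3 SLC43 genes, Slc43a1, the LAT3 carrier of branched-chain amino acids, was higher by 0.33 against control tamoxifen (limma, SE 0.0896, adjusted p = 0.0211) and by 0.27 against mutant NaCl (limma, SE 0.0778, adjusted p = 0.0291). The first call was lost without mutant tamoxifen replicate 3 (0.30) or control tamoxifen replicate 2 (0.34), and the second in 7 of 11 fits that each left out 1 array, with values from 0.24 to 0.32. Slc43a3, a carrier of purine nucleobases, fell by 0.32 against mutant NaCl, next to the threshold (limma, adjusted p = 0.0491), and its call was lost in 8 of 11 such fits. Slc43a2 passed in neither. By share, 33.3% of the SLC43 genes passed against control tamoxifen and 66.7% against mutant NaCl. Over all genes, 24.6% and 23.2% passed. Among the genes given no role, Slc7a6os rose by 0.26 against control tamoxifen (limma, adjusted p = 0.0411). Slc6a19os rose by 0.17 against mutant NaCl (limma, adjusted p = 0.0271). These calls were lost in 7 and 5 of 11 fits that each left out 1 array. Slc6a19os lies among the lowest 25% of genes by mean level. Slc6a21 passed in neither.

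Mutant mice given NaCl and control mice given tamoxifen differ in both genotype and drug, and the comparison shows how far apart the reference groups lay. With limma, 0 of the 64 genes and 0% of all genes passed. At an unadjusted p under 0.05 there were 5 of the 64, Slc6a7 (-0.45), Slc7a5 (0.25), Slc6a17 (-0.24), Slc38a8 (-0.12) and Slc6a16 (-0.08), and 1625 of 19944 genes. Differences ranged from -0.45 for Slc6a7 to 0.25 for Slc7a5. Genes that passed against a single reference group, such as Slc6a7, Slc7a9 and Slc6a5, were thus not shown to differ between the references.

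Genes around these carriers were described from 4 lists. Of 21 other amino acid and peptide transport genes measured, 3 rose and 3 fell against control tamoxifen (28.6%, near the 24.6% of all genes). Against mutant NaCl 4 rose and 3 fell (33.3%, beside 23.2% of all genes). Slc15a1, the apical peptide carrier PEPT1, was 2.95-fold lower than in control tamoxifen (limma, log2 difference -1.56, SE 0.13, adjusted p = 6.78e-05) and 2.71-fold lower than in mutant NaCl (adjusted p = 3.37e-05). Its levels were 10.35 to 10.89 in mutant tamoxifen, 12.19 to 12.51 in control tamoxifen and 12.08 to 12.23 in mutant NaCl. Ctns, which exports cystine from lysosomes, was 2.15-fold lower than in control tamoxifen (limma, log2 difference -1.10, SE 0.105, adjusted p = 0.000138) and 1.94-fold lower than in mutant NaCl (adjusted p = 0.000102). The mitochondrial aspartate-glutamate carriers moved apart, with Slc25a13 higher by 0.47 (limma, adjusted p = 0.00275) and Slc25a12 lower, at -0.27 (limma, adjusted p = 0.00347), against control tamoxifen.

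Of 16 measured genes of the amino acid response and ATF4 pathway, 4 rose and 0 fell against control tamoxifen, which is 25% where 24.6% of all genes passed. Against mutant NaCl 9 rose and 0 fell, which is 56.2% where 23.2% of all genes passed. The list's mean level was 8.81 to 9.02 in mutant tamoxifen, 8.63 to 8.73 in control tamoxifen and 8.55 to 8.66 in mutant NaCl. Asns, asparagine synthetase, was 2.06-fold higher than in control tamoxifen (limma, log2 difference 1.04, SE 0.221, adjusted p = 0.0072). Stc2, a secreted glycoprotein, rose by 0.68 (limma, adjusted p = 0.00229), Eif4ebp1, an inhibitor of translation, by 0.42 (limma, adjusted p = 0.00212) and Atf4 itself by 0.25 (limma, adjusted p = 0.015).

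Of 13 measured genes of glutathione synthesis and targets of NRF2, a regulator of the oxidant response, 6 rose and 0 fell against control tamoxifen. Against mutant NaCl 5 rose and 0 fell. That is 46.2% and 38.5%, where 24.6% and 23.2% of all genes passed. Txnrd1, thioredoxin reductase, rose by 0.56 (limma, adjusted p = 0.00111), Gsr, glutathione reductase, by 0.56 (limma, adjusted p = 0.00198), Gpx2, a glutathione peroxidase of gut epithelium, by 0.65 (limma, adjusted p = 0.00462) and Hmox1, heme oxygenase, by 0.64 (limma, adjusted p = 0.00578). These values are against control tamoxifen. Of 25 genes of amino acid sensing by mTORC1, 2 rose and 3 fell against control tamoxifen (20%), and 3 rose and 3 fell against mutant NaCl (24%). Both are near the 24.6% and 23.2% of all genes. Fnip2 (-0.55, limma, adjusted p = 0.00837) and Flcn (-0.47, limma, adjusted p = 0.0092), which act together on the Rag GTPases, fell, and Rraga (0.29, adjusted p = 0.0164) and Lamtor1 (0.21, adjusted p = 0.0178) rose. Neutrophil markers were higher in the same arrays, with 6 of 7 past the threshold in both comparisons and medians of 0.73 and 0.79, and their part in the levels of these lists was not tested.

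**Figure D5:**
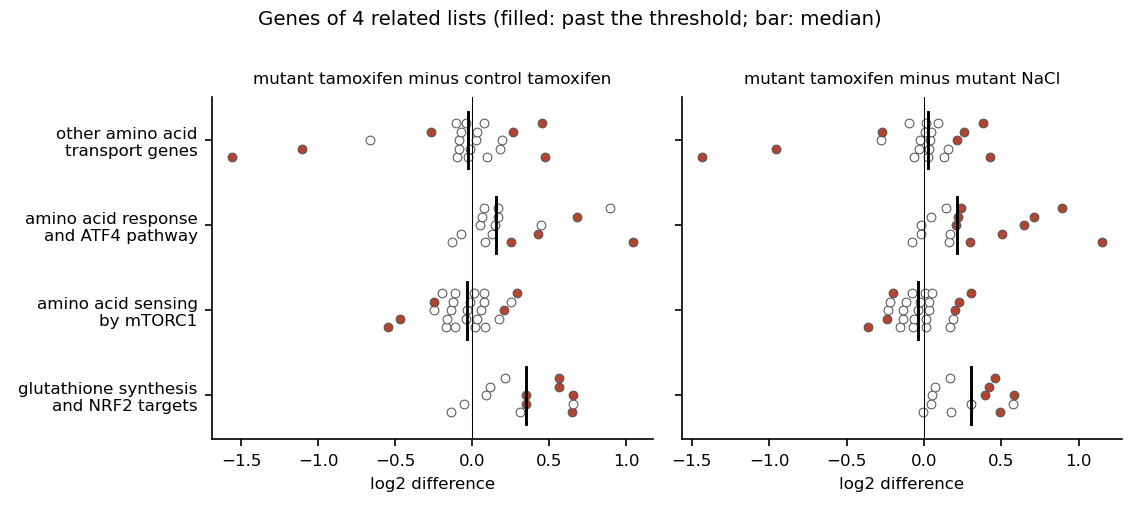
Log2 differences (x axis) of the genes of 4 related lists (rows), against control tamoxifen on the left and mutant NaCl on the right, with filled points past the threshold and bars at the list's median. The median of the glutathione list is 0.35 and 0.30, that of the amino acid response list 0.15 and 0.21, and Slc15a1 lies lowest at -1.56 and -1.44.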

How the data were processed

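The values deposited by the authors are log2 expression of transcript clusters, made with RMA (background correction, quantile normalisation, probe summary) in Expression Console version 1.1 from images read with Command Console version 2.0, per the labels and the series design text. Partek is also named in the submitters' processing notes, without its role, and a genome build is not given in the sources used here. Of 35556 transcript clusters, 21797 had 1 gene symbol in the platform annotation, and names were checked against a RefSeq table of GRCm38.p6 (21774 kept, 2 set by accession, 21 unmatched). The cluster with the highest mean was used for each of 19944 genes, and 2 of the 64 genes had several clusters. No dim genes were filtered.

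A single limma fit (limma 3.58.1, R 4.3.3) took all 11 arrays, the groups and sex, with a variance trend on mean level. Tests were two-sided, adjusted by Benjamini-Hochberg over all genes, with a threshold of 0.05. A fold is 2 to the power of the size of a log2 difference. Levels of different genes are not comparable on arrays, and the number of arrays limits the precision. The fit was tested on simulated data. The members, lists and tests were chosen with earlier results of these data known. Values in every array are given for genes past the threshold against either reference with a log2 difference of at least 0.5 in size, and for the 4 with the highest mean level, and from each pathway list the 4 genes with the smallest p are named. Replicate numbers only name arrays. Alternatives were no sex term, female arrays only, only the groups compared, the lowest 25% or 50% of genes left out, median centring, quantile normalisation again, the mean of all clusters, no variance trend, robust empirical Bayes, a squamous marker term and leaving out each array.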

Additional observations from a re-analysis of the deposited data

How the results depend on the processing

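Against control tamoxifen, 5 of the 24 calls held in each alternative setting that tested them, of 22 settings (Slc7a11, Slc7a5, Slc7a7, Slc1a1 and Slc1a5), and against mutant NaCl 14 of 22 calls did. No called difference changed sign. Against control tamoxifen 10 genes were higher and 14 lower as reported. These became 3 and 6 among female arrays only, where the control group is 1 array, assumed to vary like the other groups. With the lowest 50% of genes left out 9 were lower, with 29 of the 64 genes tested, and with a squamous marker term 9 were lower, the cause of which was not tested. Leaving out 1 array gave 4 to 10 higher and 5 to 13 lower, with 2517 to 4685 calls over all genes. Against mutant NaCl 6 were higher among female arrays only, and leaving out 1 array gave 7 to 11 higher and 8 to 11 lower. The median difference over the 64 genes against control tamoxifen was -0.013 with the lowest 50% left out, -0.026 after quantile normalisation again and -0.036 with a squamous marker term, and -0.071 to -0.042 leaving out 1 array. Against mutant NaCl it was -0.007 with the lowest 25% left out, 0.039 with the lowest 50% left out, -0.009 after quantile normalisation again, and -0.031 to -0.019 leaving out 1 array. Mutant NaCl against control tamoxifen had 0 calls among the 64 genes in every setting. No paired analysis was possible because the labels give no replicate numbers shared between the groups.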

Other observations

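Over the 28 genes past the threshold in either comparison, mutant tamoxifen replicates 1 to 4 were the lowest of their group for 5, 11, 6 and 6 genes and the highest for 4, 5, 9 and 10. The sex term, tested as male minus female over all arrays, passed for 0 of the 64 genes (limma, smallest adjusted p = 0.748).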
